A study of Rattus norvegicus with 6 samples.

Results

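Ephrins and Eph receptors are the membrane-bound ligand and receptor pairs through which osteoclasts, osteoblasts and periodontal ligament cells signal to each other on contact. Transcripts of 8 of these genes were followed in alveolar tissue of the rat (the jaw bone and soft tissue that hold the teeth): the ligands Efnb1, Efnb2 and Efna2 and the receptors Ephb4, Ephb2, Ephb3, Epha2 and Epha4. They were chosen by name as the members of the family tied to bone cell coupling and to the response of the ligament to force. The choice was made with earlier results of these data known. All 8 were among the 37203 genes of the deposited count table. The table covers 6 libraries of total RNA, 3 titled case (case 5, case 6 and case 9) and 3 titled control (control 5, control 6 and control 10). All 6 come from a rat model of orthodontic tooth movement. In the source field, case libraries are given as tooth movement lacking corticision and control libraries as tooth movement with it, where corticision is a surgical cut through the cortical bone made to speed tooth movement. Titles and source field thus run opposite to the usual sense of case and control; the titles are used for the groups, and differences are taken as case minus control. The sources used here do not give strain, sex, age, the length of force or whether animals were pooled. No label ties libraries to single animals, and p-values therefore reflect the spread between these 6 samples, part of which may be technical.

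Eph receptors are receptor tyrosine kinases, and ephrins, their ligands, are held in the membrane of the neighbouring cell. Binding sends a forward signal into the cell with the receptor and a reverse signal into the cell with the ligand. In mouse bone, ephrin-B2 (Efnb2) on osteoclasts meets EphB4 (Ephb4) on osteoblasts: reverse signalling restrains osteoclast differentiation by way of Fos and Nfatc1, and forward signalling promotes osteoblast differentiation. Ephrin-A2 (Efna2) and EphA2 (Epha2) act in the other sense in mouse cells, favouring osteoclast formation and holding back osteoblasts, and both ligand classes have been studied in ligament cells under stretch or compression.

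RefSeq promoter windows, which run from 250 bases before to 50 after the annotated start in build GRCr8, were found for 7 of the 8 genes. The build behind the counts is not stated, so these windows describe the genes and not the reads. Those of Efnb2 and Ephb4, the ligand and receptor of the osteoclast and osteoblast pair, and of Epha2 are shown because the widest spread and the most negative differences below are theirs. Each is written in the direction of transcription. Efnb2 lies at chr16:87484965-87485264 on the plus strand, Ephb4 at chr12:24988339-24988638 on the minus strand and Epha2 at chr5:158888379-158888678 on the plus strand. Capitals mark a CCAAT box on either strand in Efnb2 and Ephb4 and a cyclic AMP response element in Epha2.
Efnb2: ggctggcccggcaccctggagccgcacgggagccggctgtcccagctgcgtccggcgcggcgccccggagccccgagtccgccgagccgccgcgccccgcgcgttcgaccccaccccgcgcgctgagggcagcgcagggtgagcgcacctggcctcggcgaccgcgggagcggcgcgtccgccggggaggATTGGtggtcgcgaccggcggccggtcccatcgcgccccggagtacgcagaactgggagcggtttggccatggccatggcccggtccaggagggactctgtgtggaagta
Ephb4: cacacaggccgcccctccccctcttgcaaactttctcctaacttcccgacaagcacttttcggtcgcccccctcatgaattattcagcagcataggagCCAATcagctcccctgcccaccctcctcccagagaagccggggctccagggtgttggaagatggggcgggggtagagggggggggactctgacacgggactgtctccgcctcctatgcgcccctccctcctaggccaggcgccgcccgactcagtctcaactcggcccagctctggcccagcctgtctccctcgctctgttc
Epha2: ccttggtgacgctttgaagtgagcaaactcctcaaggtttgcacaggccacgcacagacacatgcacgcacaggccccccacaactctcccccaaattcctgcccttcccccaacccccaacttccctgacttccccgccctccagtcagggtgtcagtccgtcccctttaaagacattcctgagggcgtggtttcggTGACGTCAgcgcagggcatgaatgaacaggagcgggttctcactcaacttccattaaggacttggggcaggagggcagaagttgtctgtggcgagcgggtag
The CCAAT box (CCAAT or, on the other strand, ATTGG) was present in 5 of the 7 windows, those of Efnb1, Efnb2, Ephb2, Ephb3 and Ephb4, and in 37.7% of 27457 windows of the same length in the RefSeq table. The full cyclic AMP response element TGACGTCA, which reads the same on both strands, was present in the Epha2 window alone among the 7 and in 1.91% of all windows. The GC box (GGGCGG or CCGCCC) was present in 4 of the 7 windows (Efna2, Epha2, Ephb3 and Ephb4) and in 34.9% of all. In the Ephb3 window the first CCAAT box and the first GC box share bases. Neither the AP-1 site TGANTCA (7.33% of all windows) nor the NFAT core GGAAA or TTTCC (62.5% of all) was present in any of the 7, which says only that these letters are not in these windows.

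The libraries held 10886303 to 14433740 counts, and 16066 genes passed the filter on low counts, all 8 members among them. Values are CPM (counts relative to library size, with sizes adjusted by the trimmed mean of M-values), and levels are compared between libraries and not between genes, because no transcript lengths were used. Bone was well represented: the sum of the 8 osteoblast markers listed, all detected, was 58320.1 to 127654 CPM in case and 72297 to 103848 CPM in control, and that of 9 of the 10 osteoclast markers listed was 4568 to 6263 CPM in case and 4561 to 8094 CPM in control. Both libraries numbered 5 stood apart. The first principal component, with 42.3% of the variance, put case 5 and control 5 at -34.8 and -77.2, against 24.9 to 30.7 for the others, and values without them are given below. In whole tissue, fewer cells of a type and less RNA per cell cannot be told apart.

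Among the ligands, Efnb1 and Efna2 overlapped between case and control, while Efnb2 had the widest range over libraries of the 8 genes, with a mean of 5.92 ± 5.43 CPM in the case group and 10.1 ± 3.42 CPM in control that did not differ beyond the spread. Ephrin-B1, encoded by the X-linked gene Efnb1 and needed for normal skull and face development, was at 148, 117 and 112 CPM in case 5, 6 and 9, against 159.6, 129.8 and 118 CPM in control 5, 6 and 10. The highest library of each group was the one numbered 5, and the groups overlapped. Efnb2 was at 12.0, 4.05 and 1.68 CPM in case 5, 6 and 9, against 11.0, 6.36 and 13.0 CPM in control 5, 6 and 10. Case 6 and case 9 lay below all 3 control libraries, whereas case 5 lay above control 5 and control 6. The counts behind them were 151, 61 and 20 in case libraries, against 126, 81 and 143 in control libraries, and the exact 95% Poisson intervals, which cover counting error only, were 12.2 to 30.9 counts for case 9 and 46.7 to 78.4 counts for case 6. The log2 fold change of Efnb2 was -0.77 (SE 0.65), with an edgeR quasi-likelihood p of 0.272 and a Benjamini-Hochberg adjusted p of 0.999. This value turned on single libraries: the log2 fold change was -1.78 without case 5 (edgeR p 0.0114, adjusted p 0.488), -0.34 without case 9 (edgeR p 0.549) and -0.52 without control 10 (edgeR p 0.521). Efna2, the GPI-anchored ligand of the A class, was at 3.90, 3.65 and 3.10 CPM in case 5, 6 and 9, against 5.15, 2.67 and 3.46 CPM in control 5, 6 and 10, with all case libraries inside the control range. It rested on 37 to 55 counts in a case library and 34 to 59 in a control library, and its log2 fold change was -0.08 (SE 0.34), against -0.11 (SE 0.18) for Efnb1.

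Of the B class receptors, Ephb4 was the one gene of the 8 whose groups did not overlap, with lower values in case, and Ephb2 and Ephb3 overlapped. Ephb4, the receptor of ephrin-B2 on osteoblasts and on veins, was at 70.8, 72.7 and 62.7 CPM in case 5, 6 and 9, against 78.5, 90.0 and 84.0 CPM in control 5, 6 and 10. Its highest case library, case 6, lay below its lowest control library, control 5. Its mean was 68.7 ± 5.29 CPM in the case group and 84.2 ± 5.78 CPM in control (± SD over 3 libraries, here and below), a log2 fold change of -0.29 (SE 0.13). The edgeR quasi-likelihood p of 0.063 did not pass after Benjamini-Hochberg adjustment over all tested genes (adjusted p 0.999), and 5.29% of tested genes had a smaller p. The summed level of 6 endothelial markers, all detected, was 293 to 405 CPM in case and 377 to 447 CPM in control and overlapped, as did the osteoblast sums above, and the part of either cell type in the Ephb4 values was not tested. Ephb2, which with Ephb3 is needed for closure of the palate in mice, was the steadiest of the 8, at 14.0, 13.9 and 12.7 CPM in case 5, 6 and 9, against 12.5, 13.9 and 16.4 CPM in control 5, 6 and 10. Ephb3 was at 14.4, 8.49 and 9.39 CPM in case 5, 6 and 9, against 15.7, 12.6 and 8.02 CPM in control 5, 6 and 10. Its lowest library was control 10 and its highest control 5, so that the control group spanned the whole case range. The log2 fold changes were -0.08 (SE 0.19) for Ephb2 and -0.17 (SE 0.32) for Ephb3.

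Of the A class receptors, Epha2 had a lower mean in case with a small overlap, and Epha4 followed the libraries numbered 5. Epha2, the partner of ephrin-A2, was at 55.1, 46.6 and 40.9 CPM in case 5, 6 and 9, against 64.8, 48.8 and 65.1 CPM in control 5, 6 and 10. Case 5 alone lay above the lowest control library, control 6. The means were 47.6 ± 7.16 CPM in the case group and 59.5 ± 9.34 CPM in control, a log2 fold change of -0.32 (SE 0.18) with an edgeR quasi-likelihood p of 0.114 and a Benjamini-Hochberg adjusted p of 0.999. Epha4, a receptor that binds ephrins of both classes and takes part in the forming of the coronal suture in mice, was at 12.0, 6.44 and 6.29 CPM in case 5, 6 and 9, against 16.6, 5.26 and 7.02 CPM in control 5, 6 and 10. Both libraries numbered 5 lay above the other 4, which stood between 5.26 and 7.02 CPM whatever their group. Its log2 fold change of -0.22 (SE 0.48) became 0.43 without control 5 and 0.093 without both libraries numbered 5.

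**Figure D1:**
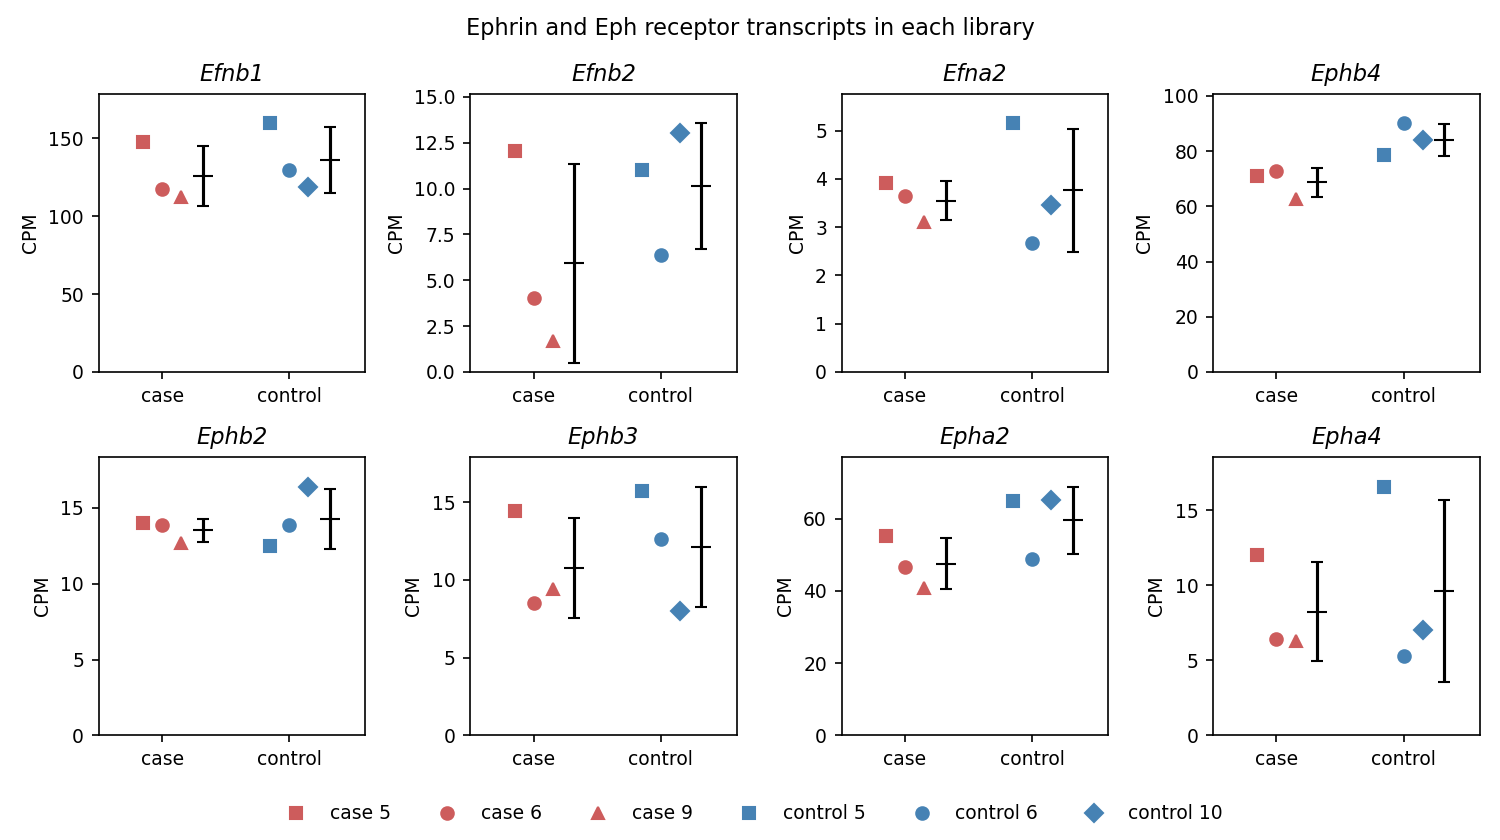
CPM of the 8 genes in each library, case (red) left of control (blue), with a marker shape for each library number and the mean ± SD (n = 3) in black; each panel has its own axis from 0. Efnb2 ranges from 1.68 to 13.0 CPM with overlap, Ephb4 is the gene whose groups do not overlap, and the squares (libraries numbered 5) are the highest points for Efnb1, Efna2, Ephb3 and Epha4.

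Among all genes, 0 of 16066 genes passed edgeR's quasi-likelihood test at an adjusted p of 0.05, a background of 0%, and 0 of the 8 members did. At an unadjusted p under 0.05 there were 666 genes, 4.15% of those tested, and 0 members; DESeq2 called 21 genes and limma-voom 0, with 0 members in both. Groups that did not overlap were found in 1 of the 8 members (Ephb4), beside 1361 tested genes, 8.47% of the total, or 4.42% counting those lower in case. All 8 fold changes were negative, with a median of -0.20, where 53.7% of tested genes had a negative fold change and their median was -0.02. The members' median varied over the fits with 1 library left out. It was -0.35 without case 5, -0.10 without case 6 and -0.07 without case 9. Without control 5, control 6 and control 10 in turn it was -0.07, -0.23 and -0.24. The smallest difference in size was that of Ephb2 (-0.08) and the largest that of Efnb2 (-0.77). The signs of Efnb1, Efna2, Ephb2, Ephb3 and Epha4 each turned in at least 1 fit with a library left out, and those of Efnb2, Ephb4 and Epha2 did not turn in any of 16 alternatives. Efnb2, Ephb4 and Epha2 had the most negative differences of the 8. The share of all tested genes that keep their sign was not computed. Leaving out case 5 gave 3 members with separate groups (Efnb2, Ephb4 and Epha2) beside 28.9% of tested genes, leaving out control 6 gave 2 (Ephb4 and Epha2) beside 17.2%, and leaving out both libraries numbered 5 gave the same 3 beside 46.8%. Efnb2 had an unadjusted edgeR p of 0.0114 without case 5 and of 0.0215 without both libraries numbered 5 (log2 fold change -1.70), where 9.54% and 14.1% of tested genes had a p under 0.05, and neither passed adjustment (adjusted p 0.488 and 0.282).

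**Figure D2:**
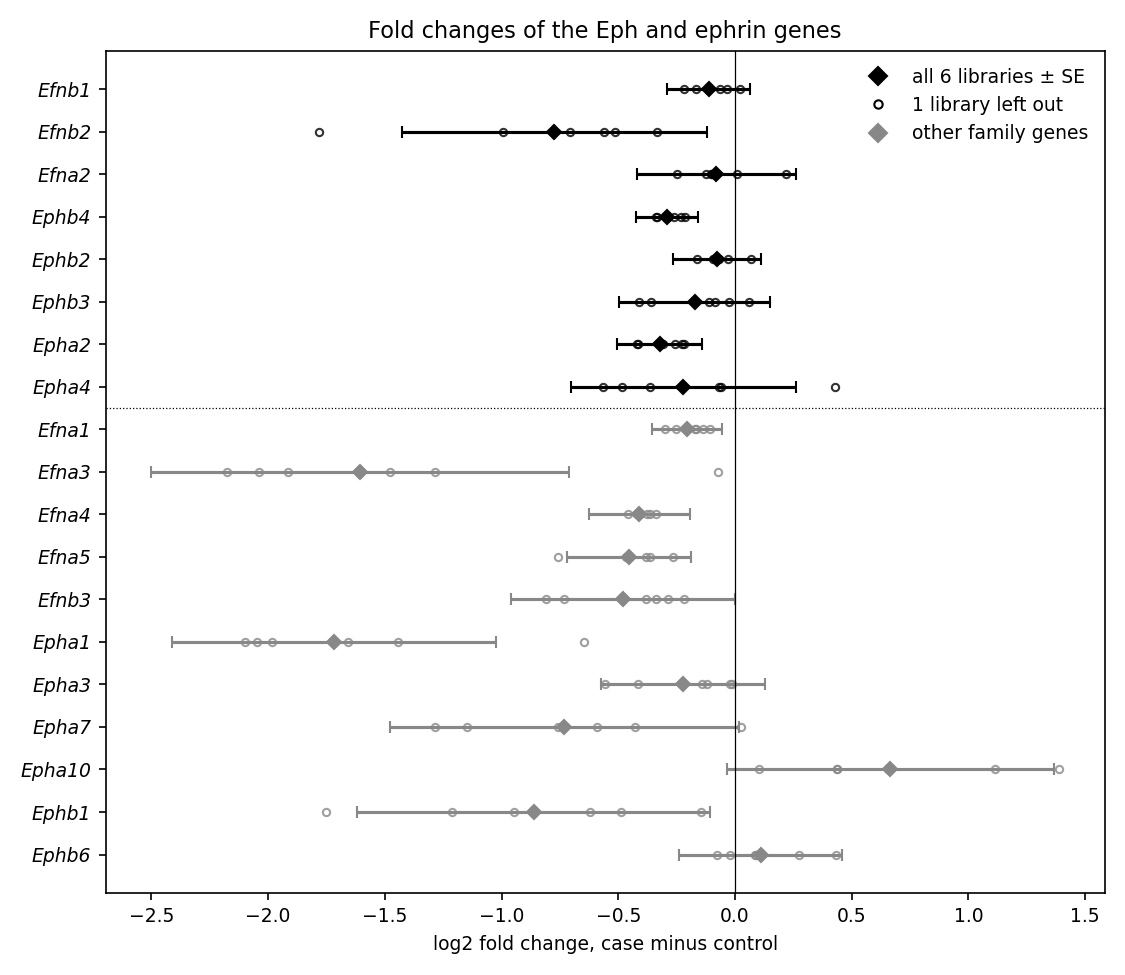
Log2 fold change (case minus control) of the 8 members (black) and of the 11 other Eph and ephrin genes that could be tested (grey), as diamonds with SE; open circles are the fits with 1 library left out. The circle far to the left for Efnb2 (-1.78) is the fit without case 5, the circle at 0.43 for Epha4 is the fit without control 5, and Efna3 and Epha1 move toward 0 without control 5.

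The spread over libraries was uneven within the set. Efnb2 spanned 2.84 on the log2 CPM scale over the 6 libraries, and 4.58% of tested genes spanned more. Epha4 spanned 1.63 and Ephb3 0.96, while Efnb1 (0.51), Ephb4 (0.52) and Ephb2 (0.39) were among the narrower genes, with 77.5%, 76.3% and 88.9% of tested genes spanning more. In 4 of the 8 members (Efnb1, Efna2, Ephb3 and Epha4) both libraries numbered 5 lay above the 4 others, beside 20.0% of tested genes. Without both of these libraries, which leaves 2 in each group, their log2 fold changes were -0.07 for Efnb1, 0.18 for Efna2, -0.17 for Ephb3 and 0.093 for Epha4, none of them called by edgeR. Summed markers of some other tissues moved with the same libraries. The sum of 8 tooth-forming cell markers, of which 3 were detected in every library, was 458 CPM in case 5 and 89.6 CPM in control 5, against 0.638 to 7.77 CPM in the others, and that of 5 neutrophil markers was 7588 and 6112 CPM, against 14304 to 18444 CPM. Tooth-forming Enam and Amtn were listed at 0 in all 4 other libraries, but single markers did not all follow the sums. Amelx and Mmp20 were at 0.611 and 0.262 CPM in control 5, below control 6 (3.38 and 0.707 CPM). Odam was at 2.47 CPM in case 5 and 2.26 CPM in case 6. The neutrophil marker Mpo was at 1389 CPM in case 5, above control 10 (1111 CPM). The part of these tissues in the levels of these 4 ephrin and Eph genes was not tested.

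Efnb2 was lowest in case 6 and case 9, and the summed markers of some tissues, but not of others, were lowest in the same pair of libraries. The osteoclast sum was 6158 and 6263 CPM in case 6 and 9, above its values in case 5 (4568 CPM) and control 5 (4561 CPM). Neutrophil and skeletal muscle sums were highest in case 9, and the osteocyte sum was lowest in control 10. The sum of 5 periodontal ligament and tendon markers was 2364, 876 and 1068 CPM in case 5, 6 and 9, against 2293, 1252 and 2342 CPM in control 5, 6 and 10. Nearly all of it was Postn, the matrix protein periostin. Postn and Aspn were highest in case 5, control 5 and control 10, the libraries with the most Efnb2. The 3 other markers did not share this order. Scx and Tnmd were highest in control 6, by little. Scx was at 4.08 CPM in control 6 and 4.06 CPM in case 5, and Tnmd at 2.20 CPM in control 6 and 2.19 CPM in control 10. Mkx was highest in case 9, where Efnb2 was lowest. Scx, Tnmd and Mkx were each lowest in case 6. The sum of 5 arterial markers, from vessels that also carry ephrin-B2, was 79.9, 57.2 and 66.3 CPM in case 5, 6 and 9, against 77.3, 80.9 and 77.2 CPM in control 5, 6 and 10. Within this sum, Gja5 and Dll4 were lowest in case 6 and case 9. Gja4 was lowest in case 5 and control 5, Sox17 in case 5 and case 9, and Hey1 in case 9 and control 5. The endothelial sum (316 and 293 CPM in case 6 and 9) and the osteoblast sum (63170 and 58320.1 CPM in case 6 and 9) were also lowest in this pair of libraries. Of the endothelial markers, Cdh5, Tek and Emcn were lowest in case 6 and case 9. Pecam1 was lowest in case 6 and case 5, and Kdr and Vwf in case 9 and control 6. Most of the osteoblast sum was Col1a1 and Col1a2, which with Runx2 were lowest in case 6 and case 9. Bglap was lowest in case 6, Alpl and Ibsp in control 5, Dlx5 in control 6 and Sp7 in control 10. Alpl was highest in case 9. The part of any of these tissues in the Efnb2 values was not tested. By the root mean square difference of centred log2 CPM over the 6 libraries, among 10767 candidates with a mean of at least 5 CPM, the genes nearest to Efnb2 were Cys1 (0.38), the lysyl oxidase relative Loxl2 (0.41) and the growth factor gene Bmp5 (0.43). Loxl2 was at 124, 34.6 and 23.2 CPM in case 5, 6 and 9, against 81.0, 42.1 and 71.9 CPM in control 5, 6 and 10. Nearest to Epha4 were Asap2 (0.11), Plekhh1 (0.13) and Zfp319 (0.15), each highest in control 5 and next in case 5. Nearest to Ephb3 were the lactate transporter Slc16a1 (0.06) and the replication factor Mcm10 (0.07), each highest in control 5 and lowest in control 10.

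A ratio of 2 genes within a library does not depend on how libraries are scaled, and it was taken for pairs of an ephrin and an Eph receptor among the members. The log2 ratio of Efnb2 to Ephb4 counts was -2.56, -4.17 and -5.22 in case 5, 6 and 9, against -2.83, -3.82 and -2.69 in control 5, 6 and 10. Case 6 and case 9 lay below the control range and case 5 above it. The mean was -3.98 ± 1.34 in the case group and -3.12 ± 0.62 in control, a difference of -0.87 that was -1.58 without case 5, -0.25 without case 9 and -1.44 without both libraries numbered 5. The log2 ratio of Efnb1 to Ephb4 was 0.86 ± 0.19 in the case group and 0.68 ± 0.30 in control, at 1.06 in case 5 and 1.02 in control 5 and between 0.50 and 0.84 in the others. The difference of 0.18 ranged from 0.082 without case 5 to 0.35 without control 5 when 1 library was left out, and was 0.25 without both libraries numbered 5. For Efna2 to Epha2 the log2 ratio was -3.82, -3.68 and -3.72 in case 5, 6 and 9, against -3.65, -4.19 and -4.23 in control 5, 6 and 10. Control 6 and control 10 lay below the case range and control 5 above it, and the difference of 0.29 was 0.47 without control 5, 0.18 without control 10 and 0.51 without both libraries numbered 5. These ratios compare libraries for 1 pair at a time, are not levels of one gene against another, and were not tested.

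**Figure D3:**
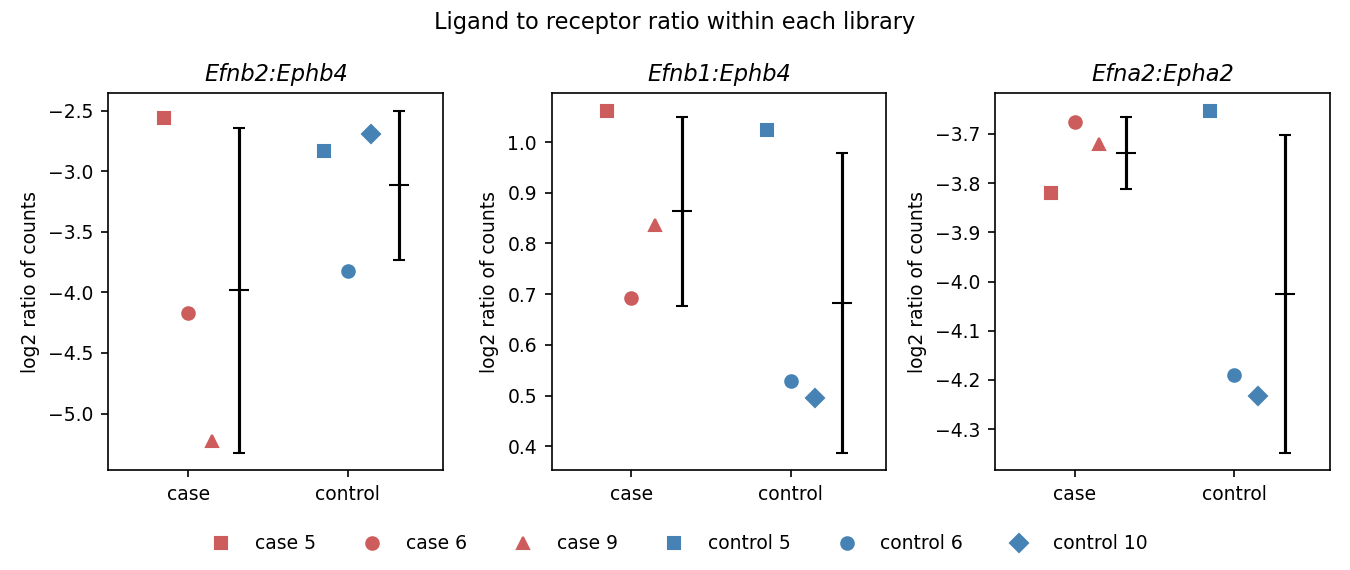
Log2 ratio of ligand to receptor counts within each library for 3 pairs, case (red) left of control (blue), with mean ± SD (n = 3) in black; the axes differ and do not start at 0. For Efnb2 to Ephb4 the case libraries run from -5.22 to -2.56 and enclose the control range, and for Efna2 to Epha2 control 5 (-3.65) stands apart from control 6 and control 10.

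The other Eph and ephrin genes were listed to set the 8 in their family, and none of them passed. Of 14 listed, 11 could be tested and 0 passed adjustment. Of the 11 fold changes, 9 were negative, beside 53.7% of all tested genes. The median over the 11 was -0.46, or -0.73 without case 5 and -0.15 without control 5. Efna4, a GPI-anchored ligand, was at 6.22, 6.24 and 6.37 CPM in case 5, 6 and 9, against 8.82, 7.46 and 8.75 CPM in control 5, 6 and 10. It was the one of the 11 whose groups did not overlap, beside 8.47% of all tested genes. The log2 fold change of Efna4 was -0.41 (SE 0.22), with an edgeR p of 0.0984 (adjusted p 0.999). Efna5 was at 21.8, 11.1 and 13.5 CPM in case 5, 6 and 9, against 20.9, 20.4 and 22.4 CPM in control 5, 6 and 10, so that case 5 alone reached the control range. Efna1 was at 40.7 ± 2.42 CPM in the case group and 46.9 ± 5.87 CPM in control. Epha1, an epithelial Eph receptor, was at 1.28, 1.92 and 0.755 CPM in case 5, 6 and 9, against 8.99, 2.36 and 1.82 CPM in control 5, 6 and 10. It was the one family gene with an unadjusted edgeR p under 0.05 (p 0.0407, adjusted p 0.999), beside 4.15% of all tested genes. The Epha1 log2 fold change of -1.72 was -0.65 without control 5 (edgeR p 0.233) and -0.58 without both libraries numbered 5. Efna3 likewise was at 8.64 CPM in control 5 and between 0.587 and 2.07 CPM elsewhere, and its log2 fold change of -1.61 was -0.07 without that library and -0.63 without both libraries numbered 5. The sum of 11 oral epithelium markers was 25.3 to 47.9 CPM in case, 3537 CPM in control 5 and 19.0 and 34.1 CPM in control 10 and control 6, and its part in the Epha1 and Efna3 values was not tested. Epha5 and Epha8 had 0 to 9 counts in a library and Epha6 was listed at 0 in all 6.

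**Figure D4:**
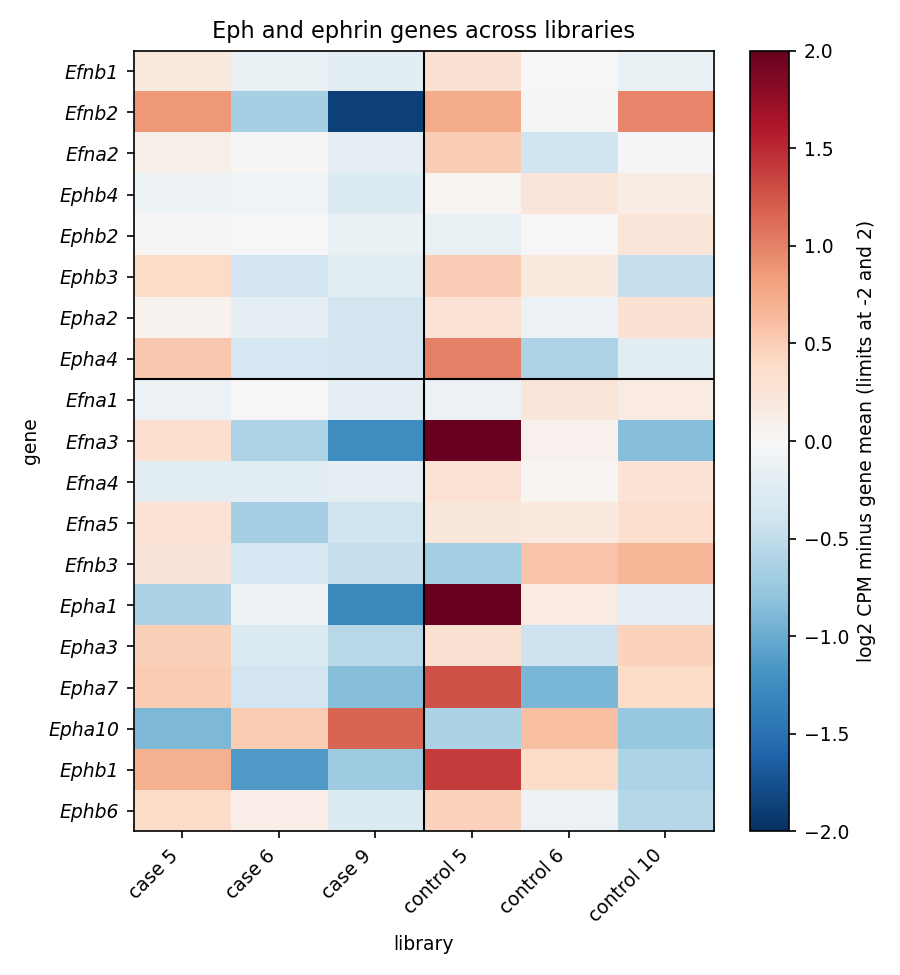
Centred log2 CPM (each gene's value minus its mean over the 6 libraries) of the 8 members, above the line, and of the 11 other tested family genes, below it, with case libraries left of control. Colours end at -2 and 2, so that Efna3 and Epha1 in control 5 are at or past the end of the scale; Efnb2 in case 9 is the darkest blue.

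Genes that carry the Eph signal inside the cell were not called between the groups. Of 28 listed signalling partners (adaptors, guanine exchange factors, kinases, phosphatases, scaffold proteins and the ephrin-cleaving protease Adam10), 27 could be tested. Of these 27, 0 passed adjustment. An unadjusted edgeR p under 0.05 was found in 0 and separate groups in 0, beside 4.15% and 8.47% of all tested genes. The median log2 fold change of the 27 was -0.11, with 20 of 27 negative, beside 53.7% of all tested genes. That median was -0.20 without case 5, -0.0058 without case 6, -0.017 without case 9 and 0.0098 without control 5. The smallest p values were those of Arhgef15, a vascular exchange factor downstream of Eph receptors (15.6 ± 3.63 CPM in the case group and 22.8 ± 5.32 CPM in control), of Rasa1, the Ras GTPase-activating protein that binds EphB receptors (23.9 ± 2.12 and 30.3 ± 5.72 CPM in case and control), and of the Src family kinase Yes1 (8.60 ± 3.01 and 11.4 ± 1.28 CPM in case and control).

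Among other signals through which bone cells are coupled (semaphorins, sphingosine 1-phosphate, interleukin 6 family cytokines and growth factors), none passed adjustment. Of 23 such genes, each of which could be tested, 4 had an unadjusted edgeR p under 0.05 and 6 had separate groups, beside backgrounds of 4.15% and 8.47%. These 6 (Sphk1, S1pr1, Lif, Il6st, Pdgfb and Pdgfrb) had lower values in case. The list was chosen with earlier results of these data known, so its counts cannot be read as an excess over those backgrounds. Of the 23 fold changes, 14 were negative, beside 53.7% of all tested genes, and the median of the 23 was -0.10. That median was -0.35 without case 5, -0.14 without case 6, -0.019 without case 9, -0.027 without control 5, -0.15 without control 6, -0.23 without both libraries numbered 5 and 0.011 with the title number as a replicate block. Sphk1, the kinase that makes sphingosine 1-phosphate, was at 21.3, 31.3 and 26.7 CPM in case 5, 6 and 9, against 39.9, 37.8 and 66.6 CPM in control 5, 6 and 10 (log2 fold change -0.86, SE 0.26). Without control 10 the Sphk1 fold change was -0.52. Lif, a cytokine of the interleukin 6 family, was at 2.99 ± 0.427 CPM in the case group and 5.76 ± 1.35 CPM in control. Pdgfb, a platelet-derived growth factor also released by preosteoclasts, was at 21.0 ± 3.54 CPM in the case group and 29.7 ± 4.27 CPM in control. Their edgeR p values were 0.0124, 0.0161 and 0.0357, each with a Benjamini-Hochberg adjusted p of 0.999. Among the 5 transcription factors linked to the pair in mouse bone, 0 had an unadjusted p under 0.05 or separate groups, and the median log2 fold change was -0.04, with a range from -0.29 without case 5 to 0.21 without control 5 over the fits with 1 library left out and 0.060 without both libraries numbered 5. Fos, which ephrin-B2 reverse signalling restrains, was at 19.9, 40.7 and 15.1 CPM in case 5, 6 and 9, against 94.6, 28.9 and 40.7 CPM in control 5, 6 and 10, with control 5 the highest. Its log2 fold change of -1.11 was -0.46 without control 5 and -0.27 without both libraries numbered 5. Dlx5 and Runx2, factors of osteoblast differentiation, were at 51.9 ± 11.0 and 80.1 ± 19.5 CPM in case, against 42.3 ± 11.8 and 88.0 ± 6.36 CPM in control.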

How the data were processed

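Per the labels' protocols, TRIzol extracts of rat alveolar tissue were sequenced single-end after library preparation with an Ion Total RNA-Seq kit. The deposited file holds whole-number counts for each gene symbol in the 6 libraries, unnormalized so far as its values show. The sources used here do not give the aligner, counter, build, annotation or strand setting, so reads shared by overlapping or similar genes could have been split. Columns were matched to libraries by title.

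Counts of all 37203 genes were filtered with filterByExpr, scaled with TMM and tested two-sided by quasi-likelihood in edgeR 4.0.16 (R 4.3.3), with the group alone in the design and Benjamini-Hochberg adjustment over 16066 tested genes at 0.05. SE is the log2 fold change over the root of F; log2 CPM used a prior count of 2. The test was run on simulated data first. The 8 genes were taken by symbol; they and all lists were chosen with earlier results of these data known. Up to 3 genes of each further list were named by smallest p, markers were summed, and genes nearest in pattern were taken for the 3 members of widest range (1 such gene is not reported here); S1pr1, Il6st and Pdgfrb are named for their separate groups, after their values were seen. Alternatives used DESeq2 1.42.0, limma 3.58.1, other scalings and filters, left-out libraries and a replicate block; those on unadjusted p, ratios and further named genes were added after seeing the data.

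Totals were 10886303 to 14433740 counts per library, at which 3 counts, the limit that a count of 0 sets by counting error, equal 0.199 to 0.273 CPM. Gene names and promoter windows came from RefSeq tables of GRCr8.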

Additional observations from a re-analysis of the deposited data

How the results depend on the processing

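Of 16066 genes, 0 were called by edgeR in the fit reported; DESeq2 called 21 and edgeR without control 5 called 2 (0 to 2 over the fits with 1 library left out). The count of members called was 0 in each of the 16 alternatives run, including the leave-one-out fits. Efna2 turned positive at 0.18 without both libraries numbered 5, and with 1 library left out ranged from -0.25 to 0.22. Epha4 was 0.093 without both libraries numbered 5 and ranged from -0.57 to 0.43. With 1 library left out, Efnb1 ranged from -0.22 to 0.021, Ephb3 from -0.41 to 0.060, Ephb2 from -0.16 to 0.069, Epha7 from -1.28 to 0.027 and Ephb6 from -0.075 to 0.43. The cause of these turns of sign was not tested. Efnb2 (-1.78 to -0.34), Ephb4 (-0.34 to -0.21) and Epha2 (-0.42 to -0.22) stayed negative. The median log2 fold change of all tested genes stayed between -0.03 and 0.03.

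The titles share the numbers 5 and 6 only, and no label says that a number marks a shared animal or day. Deviations from the group mean correlated across genes at 0.38 between the libraries numbered 5 and at 0.14 between those numbered 6, against -0.34 to 0.28 between libraries of different numbers, and 2 shared numbers are too few to show a pairing. With the number as a replicate block, 0 genes and 0 members were called. Under the replicate block the log2 fold changes of Efna2 (0.019), Ephb2 (0.082), Epha3 (0.15) and Epha10 (-0.20) turned, and those of Efnb2 (-0.25), Ephb4 (-0.23) and Epha2 (-0.15) were nearer 0; that fit rests on the libraries numbered 5 and 6.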
